A study of Homo sapiens with 4 samples.

Results

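The INK4 and CIP/KIP genes encode the inhibitors of the cyclin-dependent kinases that drive cells through G1 phase. All probe sets paired with exactly 1 gene symbol, where that symbol was CDKN1A, CDKN1B, CDKN1C, CDKN2A, CDKN2B, CDKN2C or CDKN2D, were taken, which gave 14 of the 54613 probe sets tested. They read 6 of the 7 genes, with 1 probe set for CDKN1A, 1 for CDKN1B, 5 for CDKN1C, 3 for CDKN2A, 2 for CDKN2B and 2 for CDKN2D. No probe set was paired with CDKN2C alone, so that gene was not analysed here. The members were taken by name, with no value in the rule, though earlier results of these data were known when the set was proposed.

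The arrays came from LSTGFBR2, an epithelial colon cancer cell line that carries the type II TGF-β receptor gene TGFBR2 under a doxycycline-inducible construct (T-Rex system), seeded at 60% confluence. The 2 TGF-β1 arrays are from cells given human recombinant TGF-β1 at 5 ng/ml for 16 hours, starting 16 hours after seeding, and the 2 untreated arrays are from the same line without it. Doxycycline is given as 1 μg/ml from seeding in the treatment protocol and as 1 μM in the growth protocol, and which arrays received it is not stated. Total RNA was read on a 1-colour oligonucleotide array, on which a probe set is a group of short probes summarized as 1 value. It can match more than 1 transcript, and 1801 probe sets are paired with several gene symbols. The values are robust multi-array average (RMA) values on the log2 scale, so a difference of 1 is 2-fold. As no separate cultures are named, the variation behind every p-value is that between these 4 arrays and may be only technical.

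The receptor gene differs between the groups as well. By the TGFBR2 probe set 207334_s_at the TGF-β1 arrays read 14.70 and 14.92, against 9.44 and 9.55 in the untreated arrays, and the other probe set, 208944_at, overlapped between the groups. TGF-β1 and any difference in doxycycline therefore cannot be told apart in what follows. The 10 colon epithelial markers, among them KRT18 and EPCAM, lay above the medians of all 4 arrays. Of these 10, LGR5 and CDX2 fell and the rest were not called. With 1 array left out, LGR5 was called in 1 of the 4 fits (without TGF-β1 replicate 2) and CDX2 in 0. Of the markers of other cell types, 3 of 8 for fibroblasts, 2 of 6 for endothelium and 2 of 6 for leukocytes lay above all 4 medians. None of these 20 was called, and over all genes 1.87% were called higher and 1.47% lower. The share of all genes above all 4 medians was not counted, but 11342 of 19775 had a mean of 7 or more. The array medians were 6.57 to 6.61. Replicate arrays correlated at 0.9952 in the TGF-β1 group and 0.9955 in the untreated group across probe sets, and arrays of different groups at 0.9904 to 0.9924.

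The 2 families stop the same machine at different places. INK4 proteins (p16 from CDKN2A, p15 from CDKN2B, p18 from CDKN2C and p19 from CDKN2D) bind the kinases CDK4 and CDK6 and keep cyclin D from them, while the CIP/KIP proteins (p21 from CDKN1A, p27 from CDKN1B and p57 from CDKN1C) bind cyclin-kinase complexes, above all those of CDK2. With the kinases inhibited, the retinoblastoma protein stays unphosphorylated and holds the E2F factors that switch on S-phase genes. In epithelial cells TGF-β is known to arrest growth through SMAD proteins that raise CDKN2B and CDKN1A transcription and lower MYC, whose product represses both genes. The comparison asks which inhibitor's RNA moved in these cells.

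Of the 14 inhibitor probe sets, 1 rose, that of CDKN1A, and 0 fell at an adjusted p under 0.05 by limma, a linear model with variances shared across features. Over all probe sets 0.650% were called higher and 0.304% lower, 0.954% in all. At an unadjusted limma p under 0.05 there were 4 of 14, the others being 2 CDKN1C probe sets and 1 CDKN2B probe set. The TGF-β1 arrays lay above the untreated arrays without overlap for 7 of the 14 probe sets (50%, against 19.2% of all probe sets) and below them for 2 (14.3%, against 21.6%). Probe sets of 1 gene read RNA of the same gene and are not independent. The median log2 fold change, TGF-β1 minus untreated, was 0.15 over the 14 probe sets and -0.006 over all. In these cultures a larger share of cells with an RNA and more of it per cell cannot be told apart.

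**Figure D1:**
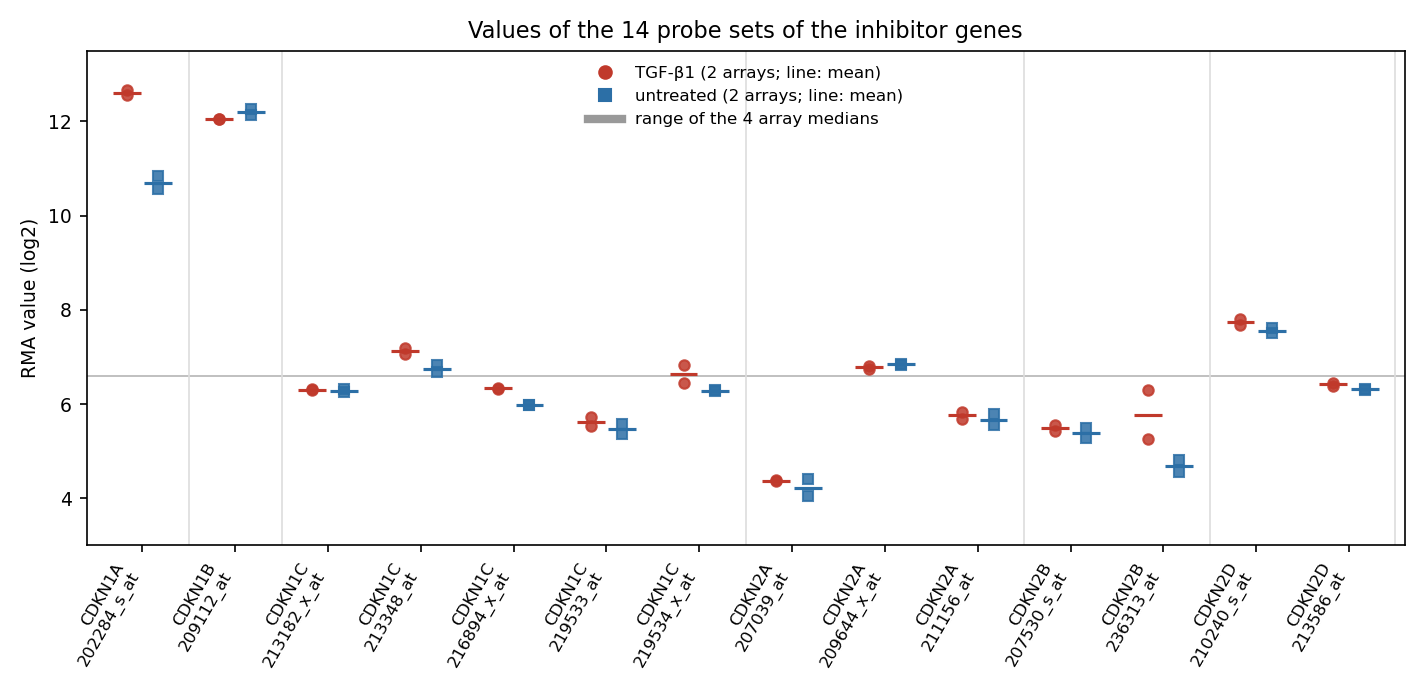
RMA values (log2, y axis) of the 14 inhibitor probe sets on each array, with the 2 TGF-β1 arrays as circles left of the 2 untreated arrays as squares, group means as short lines and the range of the 4 array medians, 6.57 to 6.61, as a grey band. The groups of CDKN1A are far apart, the 2 TGF-β1 arrays of CDKN2B 236313_at differ from each other, and 8 probe sets lie under the array medians on all 4 arrays.

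CDKN1A (chromosome 6, GRCh38 36676463 to 36687332) encodes p21. Its probe set 202284_s_at read 12.66 and 12.56 in the TGF-β1 arrays and 10.85 and 10.56 in the untreated arrays. Both TGF-β1 arrays were high and the groups were separated by far more than the spread inside either. The mean was 12.6 ± 0.0704 in TGF-β1 arrays and 10.7 ± 0.203 in untreated arrays (SD, n = 2 each). The log2 fold change was 1.91 ± 0.134 (SE), with a limma adjusted p = 0.00799 over the whole array, that is 3.75-fold, with a 95% interval of 2.99-fold to 4.71-fold. Only 0.187% of genes had a larger log2 fold change, each gene read by its brightest probe set. With 1 array left out, the log2 fold change ran from 1.77 (without untreated replicate 2) to 2.05 (without untreated replicate 1). The call over all probe sets was lost in each of these 4 fits (limma adjusted p = 0.0703 without TGF-β1 replicate 1, 0.0760 without TGF-β1 replicate 2, 0.0967 without untreated replicate 1 and 0.0874 without untreated replicate 2). Over the 19775 genes it held in all 4 (limma adjusted p from 0.0274 to 0.0366, and 0.00261 with all arrays).

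The proximal promoter is where SP1-family factors bind CDKN1A, and in the TGF-β response SMAD proteins are known to act there together with them. RefSeq promoter entries (GRCh38.p14) were found for 6 of the 7 genes, and 3 are printed to set CDKN1A beside the other textbook TGF-β target, CDKN2B, and beside CDKN1B, a CIP/KIP gene that was not called. Each line gives the 250 bases before the entry's start site, which for CDKN1A and CDKN2B lies inside the annotated span of the gene, 5′ to 3′ on the gene's strand, with capitals marking the GC box GGGCGG or its reverse complement CCGCCC, the core letters that SP1 binds.
CDKN1A (chr6:36678464-36678713, + strand): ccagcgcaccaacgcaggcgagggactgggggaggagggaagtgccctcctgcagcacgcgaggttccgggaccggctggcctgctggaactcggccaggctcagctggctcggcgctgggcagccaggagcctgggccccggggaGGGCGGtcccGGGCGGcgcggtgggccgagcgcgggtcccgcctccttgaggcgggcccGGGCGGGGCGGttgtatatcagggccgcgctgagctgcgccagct
CDKN2B (chr9:22009306-22009555, - strand): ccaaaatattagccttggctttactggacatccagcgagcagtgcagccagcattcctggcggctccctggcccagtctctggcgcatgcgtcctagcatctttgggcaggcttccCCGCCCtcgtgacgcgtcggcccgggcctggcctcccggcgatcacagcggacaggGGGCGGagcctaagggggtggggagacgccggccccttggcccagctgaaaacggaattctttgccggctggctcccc
CDKN1B (chr12:12717118-12717367, + strand): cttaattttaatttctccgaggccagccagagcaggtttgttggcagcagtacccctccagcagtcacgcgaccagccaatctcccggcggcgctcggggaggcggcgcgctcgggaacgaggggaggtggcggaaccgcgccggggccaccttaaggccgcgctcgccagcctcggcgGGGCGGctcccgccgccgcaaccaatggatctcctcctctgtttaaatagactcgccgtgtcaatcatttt
CDKN1A held 4 GC boxes, 2 of which overlap by a base, at 104, 94, 45 and 40 bases before the start. CDKN2B held 2, 1 on each strand, and CDKN1B held 1. Of 35116 RefSeq windows of this length 42.6% held at least 1 GC box and 13.9% held 3 or more. The SMAD box CAGAC (or GTCTG), the E-box CACGTG, which MYC with its partner MAX binds, and the FOXO element TGTTTAC (or GTAAACA) were in none of the 3 windows, against 38.0%, 6.3% and 3.0% of all windows. Among the windows not printed, that of CDKN2D, which was not called either, held 2 GC boxes and those of CDKN2A held 1 and 0. The windows of CDKN2C, which had no values, held 0, 5 and 1. A match is a description of the letters and does not show binding.

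**Figure D2:**
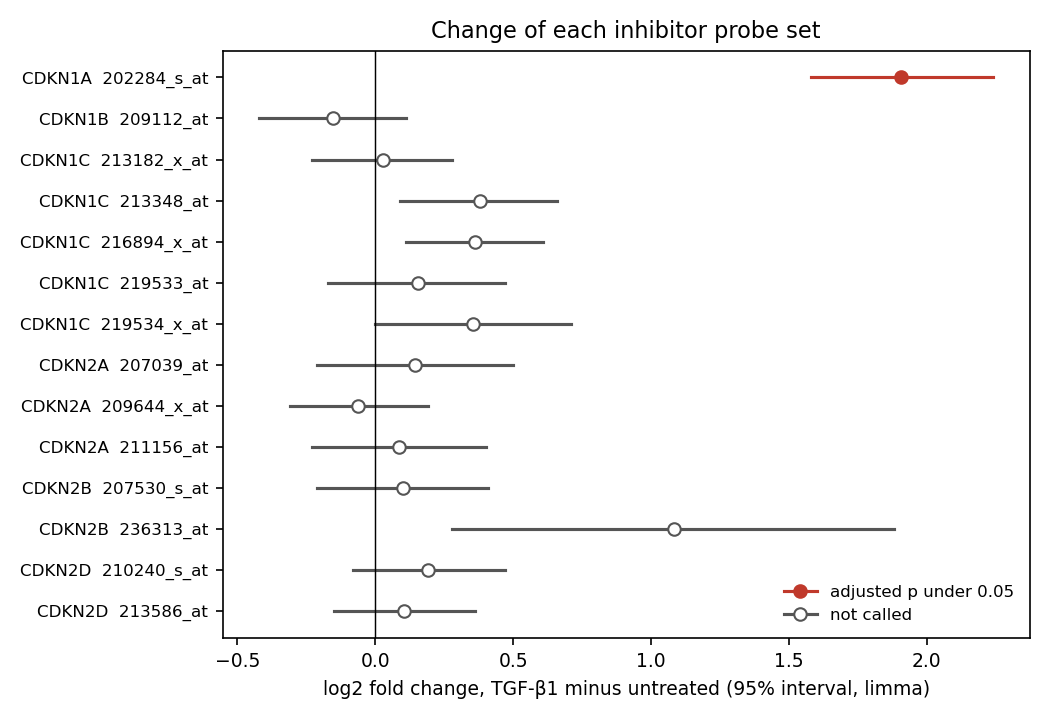
Log2 fold change (x axis, TGF-β1 minus untreated) of each inhibitor probe set with limma's 95% interval as a line. The filled red point is CDKN1A at 1.91 and open points were not called, with CDKN2B 236313_at at 1.08 and the rest between -0.15 and 0.38.

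CDKN1B (chromosome 12, 12717368 to 12722369) encodes p27, which is controlled largely through its degradation. Its probe set 209112_at read 12.05 and 12.06 in the TGF-β1 arrays and 12.27 and 12.14 in the untreated arrays. The TGF-β1 arrays were the lower pair, close below the untreated arrays. The log2 fold change was -0.15 (95% interval -0.42 to 0.11, limma adjusted p = 0.662), so at most a 1.08-fold rise lay inside the interval. It was thus a bright probe set with no change called.

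CDKN1C (chromosome 11, 2883218 to 2885775) encodes p57, an imprinted growth inhibitor. Probe set 213348_at read 7.07 and 7.20 in the TGF-β1 arrays and 6.68 and 6.83 in the untreated arrays. Probe set 216894_x_at read 6.35 and 6.33 in the TGF-β1 arrays and 5.98 and 5.98 in the untreated arrays. Both pairs were separated by more than the spread inside them, and the sizes were small. The log2 fold changes were 0.38 (95% interval 0.09 to 0.66) and 0.36 (0.11 to 0.61), and neither was called (limma adjusted p = 0.236 and 0.199). A further probe set, 219534_x_at, read 6.45 and 6.82 in the TGF-β1 arrays and 6.29 and 6.27 in the untreated arrays (log2 fold change 0.36, limma adjusted p = 0.379). The remaining 2, 213182_x_at and 219533_at, overlapped between the groups, with log2 fold changes of 0.03 and 0.15. The suffix _x_at marks probe sets with probes that can also match other sequences. Of the 5 CDKN1C probe sets only 213348_at lay above all 4 array medians.

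CDKN2B (chromosome 9, 22002903 to 22009313) encodes p15, the INK4 protein named in the textbook TGF-β arrest, and its 2 probe sets gave different pictures. Probe set 236313_at read 6.29 and 5.25 in the TGF-β1 arrays and 4.81 and 4.56 in the untreated arrays. Both TGF-β1 arrays were above both untreated arrays, and replicate 1 stood higher than replicate 2 by about as much as the groups differed. The mean was 5.77 ± 0.737 in TGF-β1 arrays and 4.69 ± 0.174 in untreated arrays (SD, n = 2 each), a log2 fold change of 1.08 ± 0.326 (SE), or 2.12-fold. It did not pass (limma adjusted p = 0.228). The 95% interval, 1.22-fold to 3.68-fold, covers anything from a small rise to one near that of CDKN1A. The value was 0.56 without TGF-β1 replicate 1 and 1.60 without TGF-β1 replicate 2.

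Probe set 207530_s_at of CDKN2B read 5.56 and 5.42 in the TGF-β1 arrays and 5.28 and 5.50 in the untreated arrays. These groups overlapped, and the log2 fold change was 0.10 (95% interval -0.21 to 0.41, limma adjusted p = 0.850). It is the brighter of the 2 on average and stands for the gene in the gene-level fit. With both averaged, the log2 fold change was 0.59 (limma adjusted p = 0.180 over genes). The difference between the changes of the 2 probe sets was examined after their values were seen, in a limma fit over the 21316 probe sets that share a gene with a brighter one. It was 0.98 (95% interval 0.23 to 1.72, unadjusted p = 0.0177, limma adjusted p = 0.544), and it did not pass. In that fit 0.0844% of probe sets passed, and 0 of the 8 from the inhibitor genes. Both CDKN2B probe sets lay under the array medians on all 4 arrays, where RMA values do not show whether a transcript was above background. By the rule the design text gives for its response signature, an unadjusted limma p under 0.05 and a rise of 2-fold or more, CDKN1A 202284_s_at and CDKN2B 236313_at were the 2 inhibitor probe sets that qualified, among 0.721% of all probe sets. Over genes the same rule takes 1.02% as higher and 0.369% as lower.

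CDKN2A (chromosome 9, 21967752 to 21995324) lies beside CDKN2B and encodes p16 and, in another reading frame, the p53 activator ARF. Its 3 probe sets had log2 fold changes of 0.15 (207039_at), -0.06 (209644_x_at) and 0.09 (211156_at). The first read 4.37 and 4.38 in the TGF-β1 arrays and 4.04 and 4.41 in the untreated arrays. The second, the one above the array medians, read 6.75 and 6.81 in the TGF-β1 arrays and 6.86 and 6.82 in the untreated arrays. The groups of the second did not overlap, with the TGF-β1 arrays just below, and those of the other 2 probe sets did. No change was called (limma adjusted p from 0.797 to 0.904), and the largest upper bound of the 3 intervals was a 1.42-fold rise, for 207039_at. That probe set and 211156_at lay under the array medians on all 4 arrays, and 209644_x_at carries the _x_at suffix. This limits what the bound says of CDKN2A. The antisense gene CDKN2B-AS1 of the same locus read 3.33 and 3.70 in the TGF-β1 arrays and 3.54 and 3.42 in the untreated arrays, and its groups overlapped.

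CDKN2D (chromosome 19, 10566460 to 10568979) encodes p19. Probe set 210240_s_at read 7.81 and 7.68 in the TGF-β1 arrays and 7.61 and 7.50 in the untreated arrays. Probe set 213586_at read 6.39 and 6.44 in the TGF-β1 arrays and 6.33 and 6.29 in the untreated arrays. The TGF-β1 arrays were narrowly the higher pair in both. The log2 fold changes were 0.19 (95% interval -0.08 to 0.47) and 0.10 (-0.15 to 0.36), with limma adjusted p = 0.578 and 0.791.

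**Figure D3:**
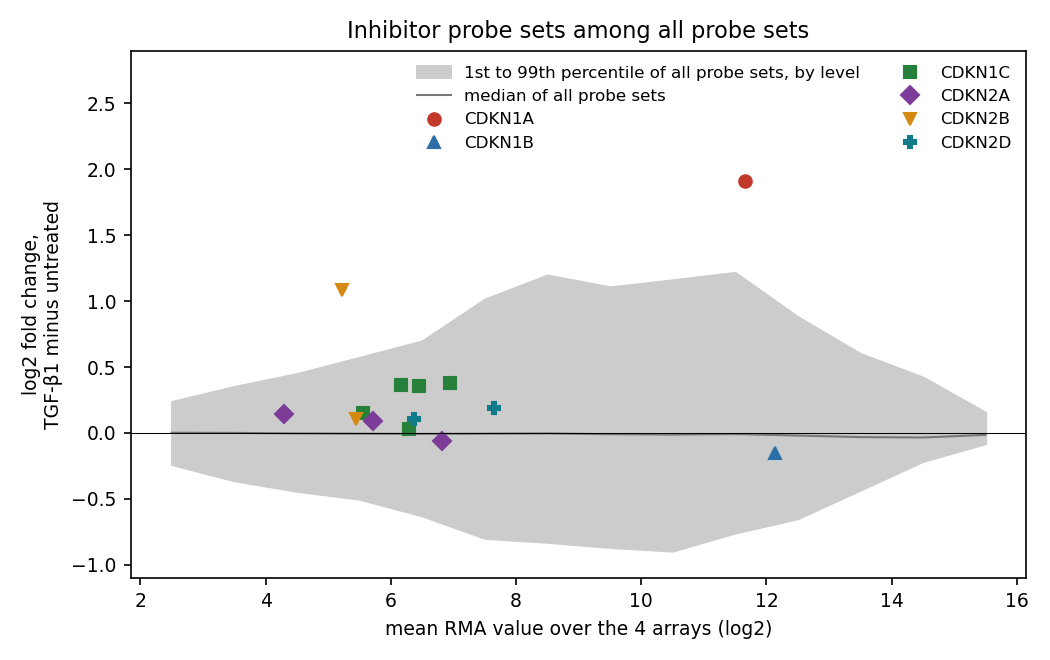
Log2 fold change (y axis, TGF-β1 minus untreated) against the mean RMA value over the 4 arrays (log2, x axis) for the 14 inhibitor probe sets, with the 1st to 99th percentile of all probe sets at each level shaded. CDKN1A (1.91, against a 99th percentile of 1.22 at its level) and CDKN2B 236313_at (1.08, against 0.573) lie above the band, and the other 12 lie inside it.

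Whether CDKN1A changed by more than the other inhibitors was asked of the difference itself. Array by array, CDKN1B minus CDKN1A was -0.61 and -0.50 in the TGF-β1 arrays and 1.42 and 1.58 in the untreated arrays, so both TGF-β1 values lay far below both untreated values. For CDKN2B 236313_at minus CDKN1A the values were -6.37 and -7.31 in the TGF-β1 arrays and -6.04 and -6.00 in the untreated arrays, and the 2 TGF-β1 arrays were farther from each other than replicate 1 was from the untreated arrays. The differences in log2 fold change from CDKN1A ran from -2.06 (CDKN1B) to -1.53 (CDKN1C 213348_at) for 12 of the 13 other probe sets, with 95% intervals between -2.44 and -1.12. For CDKN2B 236313_at the difference was -0.83 (95% interval -1.64 to -0.01). These intervals are unadjusted, combine the moderated standard errors of both probe sets as if independent, and were added after the values were seen. They also compare probe sets at unlike levels. Over all probe sets the 99th percentile of log2 fold change was 0.573 at levels 5 to 6, where CDKN2B 236313_at lies. It was 1.22 at levels 11 to 12, where CDKN1A lies. How far level enters these differences was not tested. The planned limma fit on the array-by-array differences called all 13 as smaller than CDKN1A, but also 99.7% of all probe sets. Every probe set in it shares the spread of CDKN1A itself, so its calls are not read as evidence.

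The genes whose pattern over the 4 arrays was nearest to that of CDKN1A were found by the Euclidean distance between mean-centred log2 values. They were JAG1 (a Notch ligand, distance 0.194), SMAD7 (an inhibitory SMAD, 0.198), PRSS23 (a serine protease, 0.226), TSPAN2 (a tetraspanin, 0.235) and TUFT1 (0.239). SMAD7 read 10.18 and 9.87 in the TGF-β1 arrays and 8.26 and 8.13 in the untreated arrays. Their folds were 3.34 to 4.28, which follows from how they were chosen. For CDKN2B, by 207530_s_at, the nearest were SPRED3, CTR9, PP12613, CFAP299 and PPP1R14B-AS1, at distances of 0.00457 to 0.0208. That pattern is close to flat, and so are theirs by the choice.

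The genes around the inhibitors were described as lists, also drawn up with earlier results known, in the gene-level fit, in which 1.87% of 19775 genes were called higher and 1.47% lower, with a median log2 fold change of -0.004. Of 13 direct TGF-β targets 9 rose and 0 fell (69.2%, median 1.83). CCN2, connective tissue growth factor, read 11.55 and 11.19 in the TGF-β1 arrays and 6.71 and 6.84 in the untreated arrays. TGFBI, SNAI2, BHLHE40 and PMEPA1 rose by 22.8-fold, 16.7-fold, 12.4-fold and 12.2-fold. With any 1 array left out most of these calls held, while most calls over all genes were lost.

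Of 22 transcription regulators of the inhibitor genes, 2 rose and 1 fell (median -0.01). MYC, the repressor of CDKN1A and CDKN2B, read 10.55 and 10.42 in the TGF-β1 arrays and 12.14 and 11.99 in the untreated arrays, 2.98-fold lower (limma adjusted p = 0.00311). Its groups were as well separated as those of CDKN1A, in the opposite direction, and it was called with any 1 array left out. KLF6, an activator of CDKN1A, rose 2.25-fold and SMAD3 rose 1.88-fold (limma adjusted p = 0.00719 and 0.0358). With 1 array left out, KLF6 was called in 1 of the 4 fits (without untreated replicate 2) and SMAD3 in 0, while ID1, an inhibitor of helix-loop-helix factors that was not called with all arrays, passed without TGF-β1 replicate 1.

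The next list holds the G1 and S cyclins and kinases, with the phosphatase CDC25A and the kinase assembly factor MNAT1. Of its 14 measured genes 4 fell and 0 rose (28.6%, median -0.20). CCNE2, cyclin E2, read 8.95 and 8.44 in the TGF-β1 arrays and 10.15 and 10.03 in the untreated arrays, 2.63-fold lower. CCNE1, which encodes cyclin E1, the partner of CDK2, was 1.89-fold lower. CDC25A, the phosphatase that activates CDK2, was 1.77-fold lower and CDK4, the kinase that INK4 proteins bind, 1.68-fold lower. Nearly all of these calls were lost with 1 array left out, as were most calls over all genes. The log2 fold change of CCNE2 then ran from -1.65 to -1.14.

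Downstream, 2 of 13 genes for pocket proteins, E2F factors and their DP partners fell and 0 rose (15.4%, median -0.15). E2F2 was 1.77-fold lower and E2F5 1.57-fold lower. Of 21 S-phase genes 8 fell and 0 rose (38.1%, median -0.46). MCM10, a replication initiation factor, read 9.98 and 10.16 in the TGF-β1 arrays and 10.88 and 10.95 in the untreated arrays. ORC1, a subunit of the origin recognition complex, and MCM2, a subunit of the replicative helicase, were 1.74-fold and 1.73-fold lower, the licensing factor CDT1 1.60-fold and GINS2, a helicase subunit, 1.54-fold. No call in either list held with 1 array left out, when most calls over all genes were lost too. In those fits 1 group holds only 1 array. The log2 fold change of MCM10 then ran from -0.94 to -0.75 and that of E2F2 from -0.94 to -0.70.

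Of 14 genes for turnover of the CIP/KIP proteins, which are ubiquitin ligase subunits and activators, the import receptor KPNA1 and the signalosome subunit COPS5, 1 fell and 0 rose (7.14%, median -0.07). DTL, the CDT2 subunit that directs p21 and CDT1 to degradation, read 9.58 and 9.47 in the TGF-β1 arrays and 10.82 and 10.79 in the untreated arrays, 2.43-fold lower (limma adjusted p = 0.00469), and it was not called without untreated replicate 1 (limma adjusted p = 0.0562). SKP2, the p27 ligase subunit, did not pass, with a log2 fold change of -0.45 (limma adjusted p = 0.0760). Among 8 genes for Polycomb proteins, the demethylase opposing them and neighbours of the CDKN2A and CDKN2B locus 0 were called by limma, and KDM6B, a histone H3K27 demethylase, and EED, a subunit of the complex that writes that mark, had log2 fold changes of 0.48 and -0.43 (unadjusted p = 0.00346 and 0.0383, limma adjusted p = 0.0721 and 0.261).

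CDKN1A is also the best known p53 target, so other p53 targets were set beside it. Of 19, 1 rose and 0 fell (5.26%, median 0.05). TP53INP1, a p53-induced stress protein, read 9.43 and 9.53 in the TGF-β1 arrays and 8.38 and 8.35 in the untreated arrays, 2.16-fold higher, and each leave-one-out fit lost this call. TP53I3, a p53-induced oxidoreductase, did not pass, with a log2 fold change of 0.77 (limma adjusted p = 0.136). The log2 fold changes of the 19 ran from -0.50 (limma adjusted p = 0.0911) to 1.11.

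**Figure D4:**
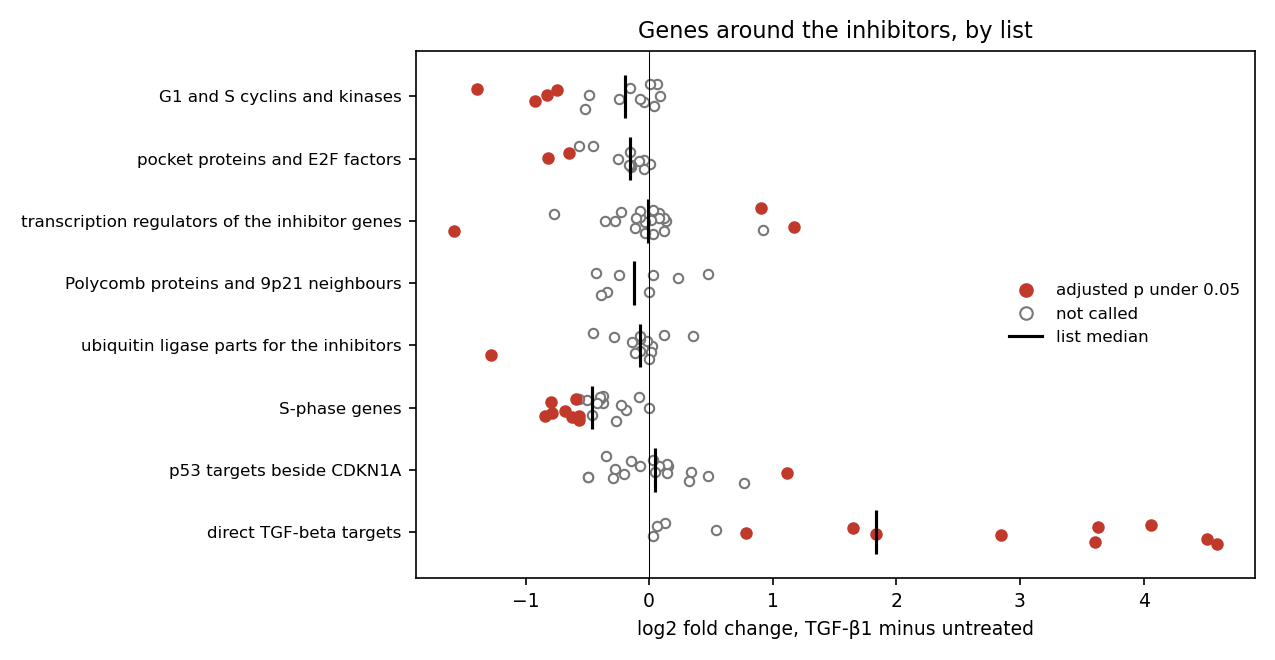
Log2 fold change (x axis, TGF-β1 minus untreated) of each measured gene in the 8 lists around the inhibitors, with called genes filled, other genes open and the list median as a vertical line. The called genes of the S-phase list and of the cyclin and kinase list lie left of 0 and the called direct TGF-β targets right of it, with list medians of -0.46, -0.20 and 1.83.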

How the data were processed

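The deposited values are log2 RMA values, 1 per probe set and array, made by the authors by background correction, quantile normalization and summarization per the series' design text. For the RMA software version, the sources used here give none. The log2 scale was judged from their range (2.48 to 15.34). RMA hides a shift of most transcripts and gives no detection call. The 62 array controls were left out. The platform annotation pairs 41091 probe sets with 1 symbol, 1801 with several and 11721 with none, and symbols were updated through the Entrez ID. Groups came from the sample titles.

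limma 3.58.1 in R 4.3.3 (lmFit, eBayes, two-sided, no covariate) was run over 54613 probe sets (5.97 degrees of freedom) and over 19775 genes, each by its brightest probe set, with Benjamini-Hochberg adjustment over all of them and a threshold of 0.05. The fit over probe sets was tested on simulated data, and the fit over genes used the same model. An exact permutation test of 2 arrays against 2 cannot go below 0.333 and was not used. Inhibitors and lists were chosen with earlier results of these data known. From each list up to 5 called genes with the largest change are named, or the 2 with the largest change where under 2 were called. The number of arrays limits the precision. Alternatives are in the closing section.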

Additional observations from a re-analysis of the deposited data

How the results depend on the processing

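The rise of CDKN1A kept its direction and its call over genes under every alternative run, and over probe sets under all but the fits with 1 array left out, where 0 inhibitor probe sets were called in place of 1. The design text's signature rule gave 2 inhibitor probe sets. With 1 array left out, log2 fold changes by gene ran from 1.77 to 2.05 for CDKN1A, -0.22 to -0.09 for CDKN1B, 0.30 to 0.46 for CDKN1C, -0.09 to -0.04 for CDKN2A, -0.006 to 0.21 for CDKN2B (below 0 without untreated replicate 1) and 0.13 to 0.26 for CDKN2D, and CDKN2A turned to 0.057 with its probe sets averaged. No call changed among these 6 genes. The planned fit of the difference from CDKN1A calls 99.7% of all probe sets, so nothing is read from its counts of inhibitor probe sets, which were 12 or 13 with 1 array left out and 2, the only 2 left, among probe sets with a mean of 7 or more. In the same leave-one-out fits most list calls outside the direct TGF-β targets were lost, as given list by list above. Most calls over all 19775 genes, higher and lower, were lost in these fits as well. The fits leave 1 residual degree of freedom, and whether that accounts for the losses was not tested. The signature rule gave 1 lower gene of the cyclin and kinase list, 0 pocket protein or E2F, 0 S-phase and 1 higher transcription regulator. Averaged probe sets gave 0 higher p53 targets and 0 lower pocket protein or E2F genes. A mean of 7 or more gave 1 higher gene of the Polycomb and neighbour list and 2 lower genes of the ubiquitin ligase list. An intensity trend gave 2 in the ubiquitin ligase list as well. Over all genes the main fit called 369 higher and 291 lower of 19775, averaging 358 and 312, and the trend 434 and 368. The mean of 7 or more called 467 higher and 443 lower of 11342. Same-numbered arrays deviated together (0.224 over probe sets, 0.364 over genes), but 2 pairs do not establish a pairing. With the replicate block the counts were 2 lower S-phase genes in place of 8, 0 pocket protein or E2F genes, 1 higher transcription regulator and 2 higher p53 targets. Over all genes the block fit called 327 higher and 234 lower of 19775. CDKN1A kept its call in it (limma adjusted p = 0.0180 over genes and 0.0454 over probe sets). Of 8 planned housekeeping genes 7 were measured and used for centring. The difference from CDKN1A was not refitted against an average of its probe sets, as it has 1. Of the 14 probe sets 8 lay under all array medians, which limits what can be said of CDKN2B, CDKN2A and CDKN1C.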
